A study of Homo sapiens with 6 samples.

Results

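Cells of the Hodgkin lymphoma line L1236 that had been given methanol for 8 h were compared with untreated cells of the same time. The comparison rests on 2 of the 6 arrays in the series, 1 array a side, chosen by their labelled agent and time. Methanol, at 0.1%, was the vehicle of leukotriene D4 (LTD4), a lipid mediator that the study gave at 100 nM. Per the labels' protocols, the cells that received methanol or LTD4 were spun down and taken up in serum-free RPMI medium. The labels do not say how untreated cells were handled, so methanol, the handling and the loss of serum cannot be told apart. The other arrays are untreated, methanol and LTD4 at 1 h and LTD4 at 8 h, each a single array, and nothing in the labels says which arrays came from separate cultures. No test was possible and no replicate error was available, so each difference below describes the arrays compared. L1236 is an established line that grew out of cells of a Hodgkin lymphoma, a tumour of B-cell origin.

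Methanol is oxidised in the body to formaldehyde and then formate, which enters the folate-dependent one-carbon pathway. Small nucleolar RNAs (snoRNAs) guide the modification of ribosomal RNA. The C/D box class directs ribose methylation and the H/ACA box class directs pseudouridine formation, and most human members are cut out of introns of host genes, many of which encode ribosomal proteins.

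Most but not all markers of the labelled cells were bright. Of 9 Hodgkin markers, 5 lay above the background limit, namely PAX5, CD40, IRF4, CCL17 and FSCN1. TNFRSF8, at 860 in untreated and 872 in methanol, CD70 and CCL22 lay above the median gene only, and TRAF1 lay under it. The summed intensity over all 9 was 14689 in untreated and 16347 in methanol. CD79A was the only member of 4 B-cell markers above the median gene, and 0 of 4 T-cell and 0 of 4 monocyte markers reached it. KRT8 and KRT18 were above the median gene among 5 epithelial and fibroblast markers. KRT8, at 497 in untreated and 687 in methanol, was brighter than CCL22, at 288 and 454. None of these markers was at 0, and MS4A1, a defining B-cell gene, had an intensity of 36.7 in untreated and 43.1 in methanol.

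Most genes were brighter on the methanol array. Its median intensity over all probesets was 223 against 154 on the untreated array, while its highest intensity was lower, at 23832 against 32230. Values are given as intensities, and differences as methanol minus untreated on the log2(intensity + 16) scale, on which 1 unit is 2-fold. Among 17110 protein-coding genes split into 10 bins by the mean of the 2 arrays, the median difference was 0.26 in the dimmest bin, 0.44 in the fifth and 0.19 in the brightest. The level of difference thus depended on the intensity of a gene. Each difference may be followed by its value relative to the bin, which is the difference minus the median of protein-coding genes of like intensity in 20 bins.

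A background limit of 10.32, an intensity of 1263, was set at the 95th percentile of 45 control probesets of antigenomic design, made to have no match in the human genome. It was applied to the mean over the 6 arrays. It left 2643 protein-coding genes, with a median difference of 0.24, and 31 short RNA rows. That median was -0.25 when arrays were centred on their medians and -0.02 after quantile normalization, so gene lists are read against the median of all protein-coding genes. A wider limit at the median gene, an intensity of 305, left 8835 protein-coding genes and 93 short RNA rows. Intron control rows, which lie in introns and were designed as a low reference, had a median difference of 0.50 over 2904 rows, and 23.0% of them were higher by 2-fold. The 307 intron rows above the background limit had a median of 0.02.

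**Figure D1:**
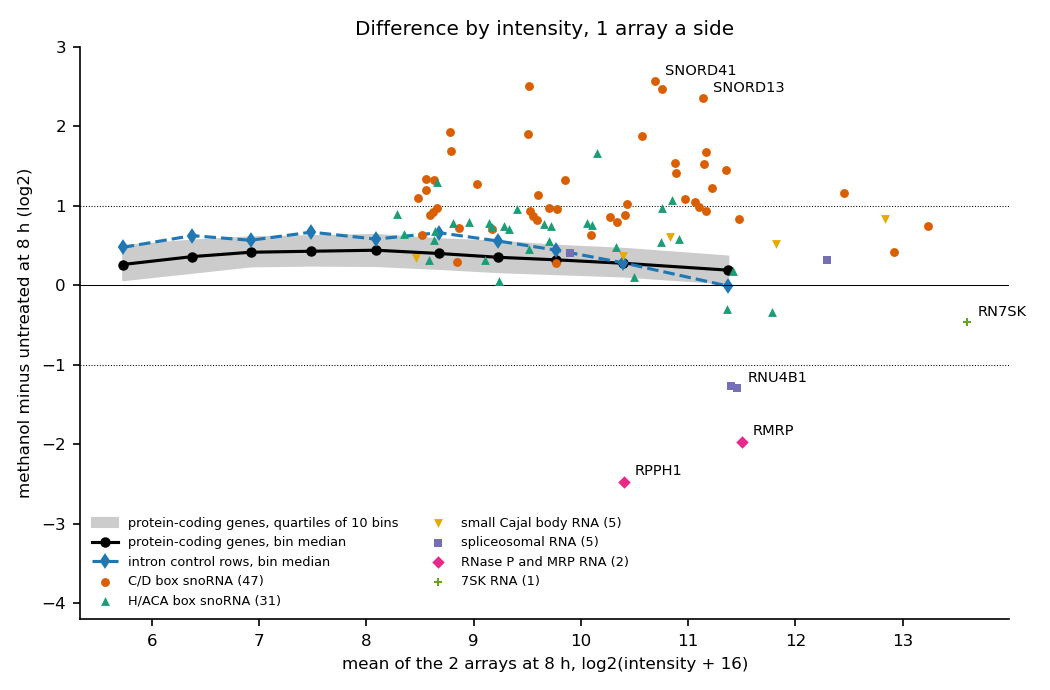
Difference of methanol minus untreated at 8 h against the mean of the 2 arrays, both on the log2(intensity + 16) scale. The black line and grey band are the median and quartiles of protein-coding genes in 10 bins, the blue line is the median of intron control rows in the same bins, and each coloured mark is 1 row above the median gene of the short RNA classes in the key. The C/D box snoRNA rows lie mostly above the band and RPPH1, RMRP, RNU4B1 and RNU5E-1 lie far below it.

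The greatest differences above the background limit were in short noncoding RNAs and ran in opposite directions by class. Of the 31 short RNA rows above the limit, 12 were higher by 2-fold (38.7%) and 3 were lower (9.68%), against 0.568% and 0.0% of protein-coding genes. After the bin median was taken off, 8 short RNA rows were higher (25.8%) and 3 lower (9.68%). At the wider limit, 29 of 93 short RNA rows were higher (31.2%) and 4 lower (4.3%). Of the 12 rows, 11 were C/D box snoRNAs, and the other was SNORA61, an H/ACA box snoRNA. In 5 of the 12 the untreated value lay under the limit, against which these 5 were at least 2.09-fold higher. The 3 lower rows were RMRP, RNU4B1 and RNU5E-1.

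RPPH1 and RMRP are the RNA components of RNase P, which trims the ends of transfer RNA precursors, and of RNase MRP, which cuts ribosomal RNA precursors. Both are transcribed by RNA polymerase III. RPPH1 had an intensity of 3179 in untreated and 561 in methanol at 8 h, a difference of -2.47, or -2.74 relative to the bin. The methanol value lies under the background limit, so RPPH1 was at least 2.50-fold lower by that limit. The same row read 3159 in untreated and 249 in methanol at 1 h, and 532 with LTD4 at 8 h. The 2 untreated arrays thus lay close together and the vehicle arrays of both times lay far below them.

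RMRP had an intensity of 5709.6 in untreated and 1449.8 in methanol at 8 h, a difference of -1.97, or -2.10 relative to the bin. At 1 h it read 3867 in untreated and 768 in methanol, and with LTD4 at 8 h it read 1347. RMRP thus lay lower in all 4 vehicle arrays, as RPPH1 did, and its 8 h methanol value stayed above the background limit.

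Among spliceosomal RNAs the rows went different ways. RNU4B1, annotated as a U4 RNA, read 4391 in untreated and 1784 in methanol, a difference of -1.29. RNU5E-1, a U5 variant, read 4169.9 and 1718, a difference of -1.27. The RNU4B1 row has 6 probes that also match other sequences. Both differences were greater at 1 h, at -2.22 and -2.31. The U2 rows RNU2-1 and RNU2-2 share the same values because their probes cross-match, and read 4502 in untreated and 5597 in methanol, a difference of 0.31. RNU5F-1, above the wider limit only, differed by 0.41. RN7SK, the RNA polymerase III transcript that holds the elongation factor P-TEFb in an inactive complex, read 14538 and 10577, a difference of -0.46, or -0.59 relative to the bin.

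C/D box snoRNA rows above the limits were higher with methanol. All 16 rows above the background limit were higher with methanol, 11 of them by 2-fold, with a median of 1.19, or 0.99 relative to the bin, where the median of protein-coding genes was 0.24 and 0.02. At the wider limit 47 rows were measured, 25 were higher by 2-fold and 0 lower, and the median was 1.05, or 0.75 relative to the bin. The direction of the median was kept when the arrays were centred on their medians (0.70) or quantile normalized (1.00).

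SNORD41, which lies in an intron of TNPO2, read 662 in untreated and 3997 in methanol at 8 h, a difference of 2.57. The untreated value lies under the background limit, against which the row was at least 3.14-fold higher. SNORD41 read 568 in untreated and 1552 in methanol at 1 h, and 2304 with LTD4 at 8 h. The 2 untreated arrays were the lowest of the 6 and the 8 h methanol array the highest.

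SNORD13, which is transcribed from its own promoter and is known for helping the acetylation of small-subunit ribosomal RNA, read 981 in untreated and 5074 in methanol at 8 h. Its difference was 2.35, and at least 3.98-fold against the background limit. The row of the SNORD13P3 copy read 716 and 4058. Each of these rows has 5 probes that match more than 1 sequence, so the SNORD13 and SNORD13P3 rows are not independent.

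Rows with both values above the limit behaved alike. SNORD28 read 1267 in untreated and 4083 in methanol, a difference of 1.68. SNORD45A read 1318 and 3822, a difference of 1.52, and SNORD95 read 1564 and 4316, a difference of 1.46. SNORD57, the brightest of the rows past 2-fold, read 3747 and 8375, a difference of 1.16. SNORD33, which read 6704 and 8966, had the least difference of the class above the limit, at 0.42. SNORD15B, above the wider limit only, read 1144 and 3076 with methanol but 1177 with LTD4.

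**Figure D2:**
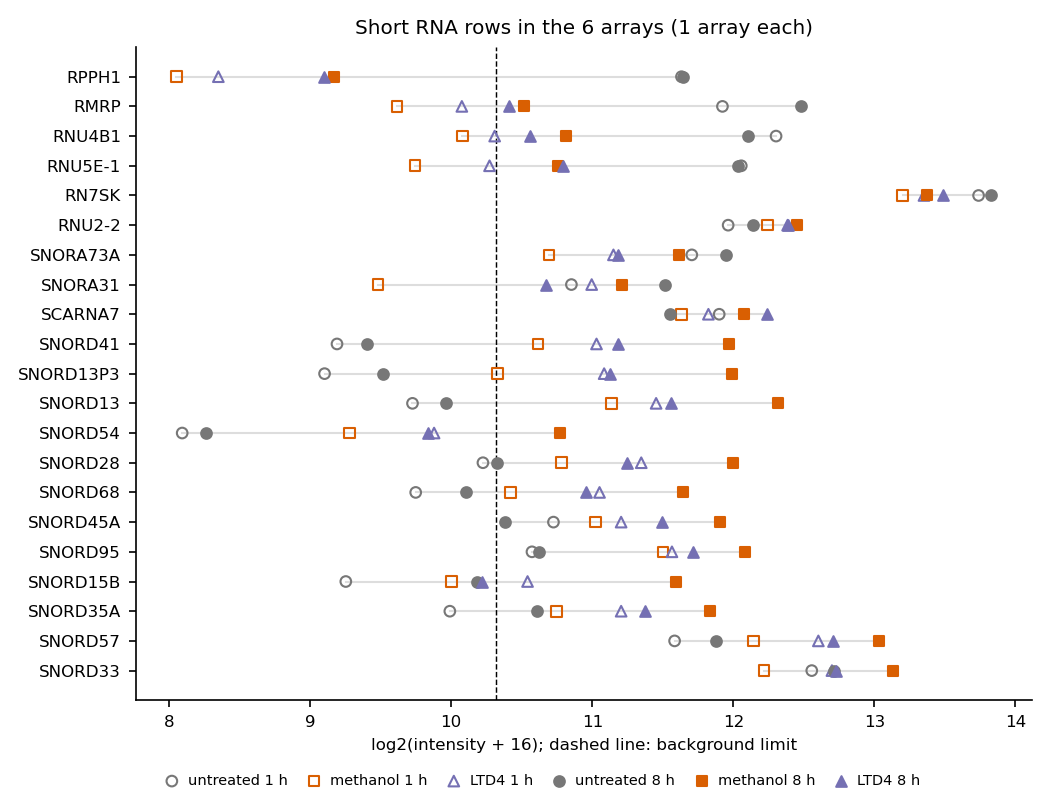
Values of 21 short RNA rows on the 6 arrays, on the log2(intensity + 16) scale, with 1 mark for each array and the background limit as a dashed line. For RPPH1, RMRP, RNU4B1, RNU5E-1 and RN7SK the untreated arrays (circles) are the highest, and for most C/D box rows they are the lowest and the 8 h methanol array (filled square) the highest.

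The few H/ACA box rows above the background limit went both ways, while most rows at the wider limit lay above their bin. Of 6 rows above the background limit, 1 was higher by 2-fold, and the median difference was 0.38, or 0.19 relative to the bin, and -0.11 when arrays were centred on their medians. At the wider limit 31 rows were measured, and 29 lay above 0, as did 7814 of 8835 protein-coding genes. Of the 31 rows, 3 were higher by 2-fold and 0 lower, against 2.26% and 0.0226% of protein-coding genes. The rows had a median of 0.71, or 0.35 relative to the bin. Of the 31 rows 25 lay above their bin, as did 4500 of the 8835 genes. SNORA61 read 1259 in untreated and 2662 in methanol, a difference of 1.07. SNORA31 read 2909 and 2359, a difference of -0.30, and SNORA73A read 3939.8 and 3128, a difference of -0.33. The 3 small Cajal body RNA rows, which guide the modification of spliceosomal RNAs, had a median of 0.62, and SCARNA17 read 5455 and 9775.

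The host genes of C/D box snoRNAs mostly did not share the difference of their guests. By the file's own coordinates, 24 of the 47 C/D box rows above the wider limit lie within a same-strand host row, in 15 hosts. One of these is the row of the SNORD13P3 copy, in KIF9. The guests had a median difference of 1.00 and the hosts of -0.01, with hosts between -0.30 and 0.82. Relative to the bin the hosts had a median of -0.18, where all 47 C/D box rows had 0.75. Of the hosts 0 were higher by 2-fold, where 2.26% of protein-coding genes above the wider limit were. The guest exceeded its host in 23 of 24 pairs, by a median of 1.17. SNORD53 in WDR43 was the exception, at 0.30 against 0.38.

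RPS20, a small-subunit ribosomal protein gene, read 6733 in untreated and 8075 in methanol, a difference of 0.26, while its guest SNORD54 read 291 and 1728, a difference of 2.51, or at least 1.36-fold against the background limit. RACK1, a ribosomal scaffold protein gene, read 13421 and 10944, a difference of -0.29, while its guest SNORD95 differed by 1.46. RPL13A read 14747 and 11953, a difference of -0.30, and its guests SNORD35A, SNORD32A, SNORD34 and SNORD33 differed by 1.22, 1.02, 0.88 and 0.42. The 4 guests of RPL13A share a host, so these pairs are not independent. For H/ACA box rows 12 of 21 guests exceeded their hosts, with medians of 0.68 in guests and 0.32 in hosts.

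**Figure D3:**
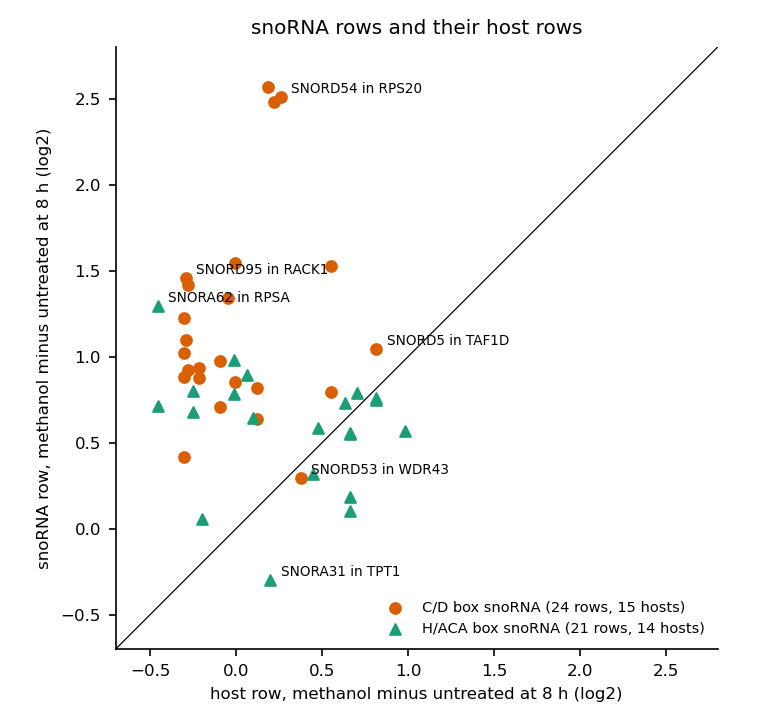
Difference of each snoRNA row against the difference of the host row it lies in, methanol minus untreated at 8 h on the log2(intensity + 16) scale, with a line of equality. Of 24 C/D box rows (circles), 23 lie above the line, while 12 of 21 H/ACA box rows (triangles) do.

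Rows of GAS5, a noncoding host transcript whose level is known to follow growth arrest, cover only 75 bases each. The brighter read 567 in untreated and 1536 in methanol, and the other 483 and 1142, with differences of 1.41 and 1.22. Rows of this size cannot tell the spliced GAS5 transcript from snoRNAs of its introns. GAS5 was chosen after its values were seen.

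The short RNA rows were also read on the other 4 arrays, which the labels do not tie to separate cultures. All 12 rows higher by 2-fold at 8 h were also higher in the 1 h pair (median 0.62), as were 28 of the 29 at the wider limit, where 66.7% of all 93 were. The 4 lower rows at the wider limit were also lower at 1 h (median -2.31). The 8 h methanol array exceeded the 8 h LTD4 array in 11 of the 12 higher rows, and SNORA61 was the other, at 2662 with methanol and 3051 with LTD4. The choice of the 12 favours a high methanol value. Over all rows above the background limit, LTD4 exceeded methanol at 8 h in 5 of 31 short RNA rows and in 840 of 2643 protein-coding genes. The 4 methanol and LTD4 arrays all lay above both untreated arrays in 15 of the 31 short RNA rows (48.4%) and below both in 5 (16.1%). The same was so for 12.8% and 11.1% of protein-coding genes. For C/D box rows it was 10 of 16 above and 0 below. At the wider limit 48 of 93 short RNA rows lay above (51.6%) and 6 below (6.45%), against 20.6% and 6.51% of protein-coding genes, and of the C/D box rows 29 of 47 lay above and 0 below.

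MicroRNA rows were few and dim. The MIR21 row covers its hairpin, and the array measures the precursor region and cannot separate it from the mature form. It read 311 in untreated and 648 in methanol at 8 h, a difference of 1.02, or 0.62 relative to the bin, with both values under the background limit. MIR17HG, the host transcript of a microRNA cluster known for its role in B-cell lymphoma, read 882 and 1926, a difference of 1.11, or 0.83 relative to the bin. MIR155HG, whose product is abundant in Hodgkin cells, read 2653 and 3485, a difference of 0.39. The MIR155HG row covers only 65 bases, near the 72 of the MIR21 row, while the MIR17HG row covers 6796. The MIR155HG value therefore need not stand for the whole host transcript. The mature forms of the MIR21 row and of members of the MIR17HG and MIR155HG transcripts are shown from RefSeq (GRCh38.p14) with bases 2 to 8, the seed, in capitals. They show that miR-17-5p and miR-20a-5p, from the same host, share a seed that miR-21-5p and miR-155-5p do not have.
hsa-miR-21-5p: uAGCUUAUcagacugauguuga
hsa-miR-17-5p: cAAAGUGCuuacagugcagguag
hsa-miR-20a-5p: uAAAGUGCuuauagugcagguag
hsa-miR-155-5p: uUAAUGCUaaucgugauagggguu

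Protein-coding genes differed much less than short RNAs. Above the background limit 15 of 2643 were higher by 2-fold (0.568%) and 0 lower (0.0%), and relative to the bin 3 were higher (0.114%), RPL19 and FABP5 among them. At the wider limit 200 of 8835 were higher (2.26%) and 2 lower (0.0226%), and relative to the bin 42 were higher (0.475%) and 5 lower (0.0566%). In 10 of the 15 genes the untreated value lay under the background limit, and measured against that limit FABP5 alone of these was at least 2-fold higher (2.07). RPL19, TMA7, HINT1 and PNN were among those with both values above it.

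RPL19, a large-subunit ribosomal protein gene, read 1834 in untreated and 4433 in methanol at 8 h, a difference of 1.27, or 1.13 relative to the bin. It read 4040.3 in untreated and 3439 in methanol at 1 h, and 4281 with LTD4 at 8 h. The 8 h untreated array was the lowest for RPL19 by far, and the other 5 arrays lay between 3439 and 4433. The row has 8 probes.

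FABP5, a fatty acid binding protein that carries lipids within the cell, read 1069.7 in untreated and 2629.8 in methanol, a difference of 1.29. It read 3087 with LTD4 at 8 h, and 1186 and 1884 in untreated and methanol at 1 h. Its 2 rows have probes that match more than 1 sequence and gave 1.29 and 1.26. All 4 arrays in vehicle lay above both untreated arrays for FABP5.

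The other genes past 2-fold included parts of several machines. GTF3C6, a subunit of the RNA polymerase III factor TFIIIC, read 996 in untreated and 2326 in methanol, a difference of 1.21. MRPL1, a mitochondrial ribosomal protein, read 853 and 2032, a difference of 1.24. RBX1, the RING subunit of cullin ubiquitin ligases, ENY2, a subunit of the SAGA and TREX-2 complexes, and HINT1, a nucleotide hydrolase, differed by 1.02, 1.09 and 1.04. TMA7, PNN, which is linked to splicing, DNTTIP2, FAM162A, CRYGN, ANKRD36B and KIAA1143 differed by between 1.02 and 1.26. The rows of TMA7, ANKRD36B and KIAA1143 also match other sequences.

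The 8 h untreated array was the lowest of the 6 for all 15 of these genes, as it was for 973 of the 2643 genes. The choice of the 15 favours a low value on that array. With methanol at 1 h, 12 of the 15 were higher than untreated, against 18.5% of all genes, and all 15 lay above the 1 h median of their bin. The exceptions in sign were RPL19, KIAA1143 and ENY2. The 4 methanol and LTD4 arrays lay above both untreated arrays for 12 of the 15, against 12.8% of protein-coding genes, but the choice of the 15 fixes the order of the 8 h pair within this count.

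**Figure D4:**
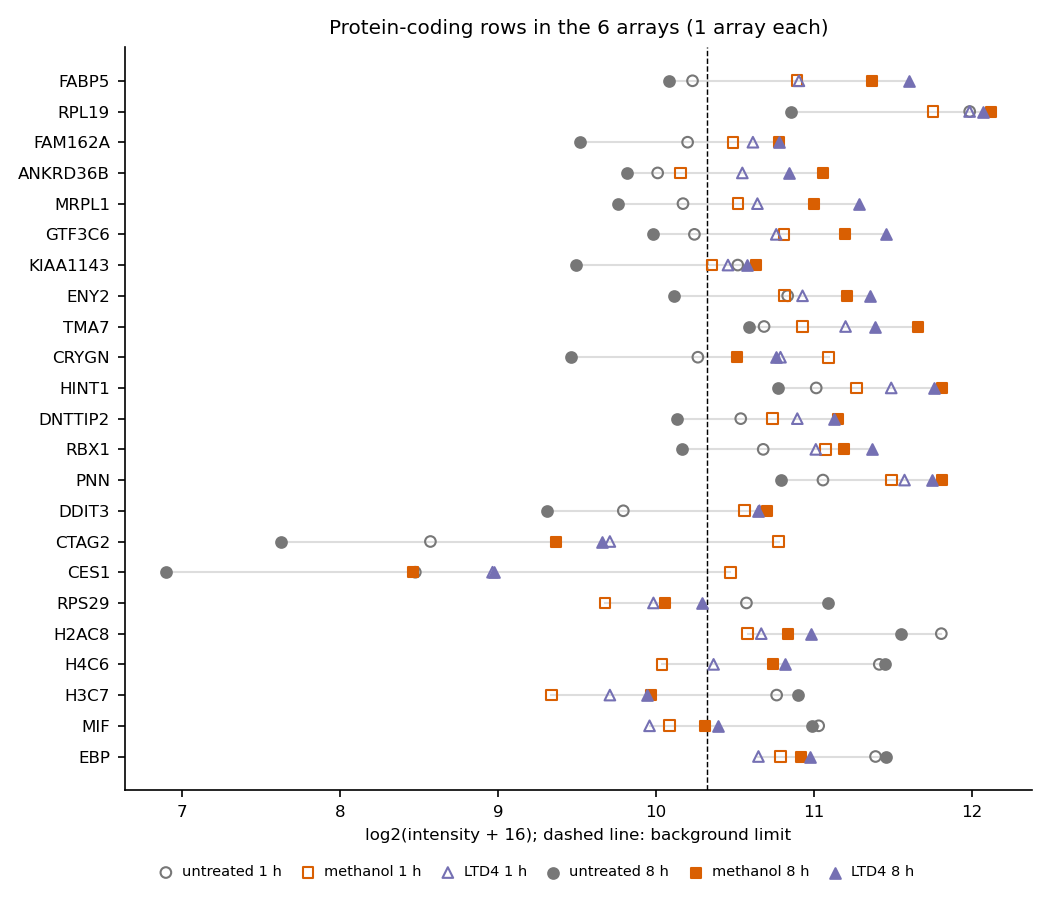
Values of protein-coding genes on the 6 arrays, on the log2(intensity + 16) scale, with 1 mark for each array and the background limit as a dashed line. The genes from FABP5 down to PNN were higher by 2-fold above the limit, a choice that favours a low 8 h untreated value. In each of them the 8 h untreated array (filled circle) is the lowest. For RPS29, the histone genes, MIF and EBP the untreated arrays are the highest.

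Dimmer genes held greater differences that rest on values under the background limit. SCARA3, a scavenger receptor linked to oxidative stress, read 76.6 in untreated and 622 in methanol at 8 h, a difference of 2.79. It read 670.3 in untreated and 701 in methanol at 1 h, so that the 8 h untreated array stood apart from the other 5. FZD1, a Wnt receptor, read 240.5 and 1034, and SRP19, a protein of the signal recognition particle, read 139 and 587. LSM5, a member of the ring that binds U6 RNA, read 488 and 1539, a difference of 1.63. These 4 were chosen after their values were seen.

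DDIT3, the CHOP transcription factor of the stress response, read 618 in untreated and 1651 in methanol at 8 h, a difference of 1.39, or 1.10 relative to the bin. At 1 h DDIT3 read 871 and 1495, and it read 1584 with LTD4 at 8 h. Measured against the background limit DDIT3 was at least 1.30-fold higher. CTAG2, a cancer-testis antigen, read 181 and 644, and CES1, a carboxylesterase that hydrolyses ester drugs and lipids, read 103 and 337. Both genes had greater differences at 1 h, of 2.20 and 1.99, and both values of each at 8 h lay under the limit.

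The integrated stress response around DDIT3 did not share its difference. Of 27 genes in the table, 8 lay above the background limit, with a median of 0.12, or -0.07 relative to the bin. Of these 8, 0 were past 2-fold, where 0.568% of all protein-coding genes were higher and 0.0% lower. At the wider limit DDIT3 was the single gene of 17 higher by 2-fold, where 2.26% of protein-coding genes were. The amino acid synthesis genes ASNS and PSAT1 and the phosphatase subunit PPP1R15B differed by 0.05, -0.03 and -0.24, and TRIB3, above the wider limit, by -0.13. The 15 ER chaperones and unfolded protein response genes above the limit had a median of 0.05, or -0.08 relative to the bin, with XBP1 at 0.41 and HYOU1 at -0.15. The 16 heat shock chaperones had a median of 0.10, or -0.16 relative to the bin, with CHORDC1 at 0.72 and HSPA8, the constitutive HSP70, at -0.22. The 16 genes of NRF2, thioredoxin and glutathione had a median of 0.12, or -0.07 relative to the bin, with GPX4 at 0.50 and TKT at -0.25.

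Enzymes of methanol, formaldehyde and one-carbon metabolism showed no common difference. The 10 above the limit had a median of 0.19, or -0.01 relative to the bin. ESD, which hydrolyses S-formylglutathione, read 1012 in untreated and 1445 in methanol, a difference of 0.51. SHMT2, the mitochondrial serine hydroxymethyltransferase, read 6817 and 5591, a difference of -0.29. GLDC, of the glycine cleavage system, read 1555 and 1551.

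Genes of translation split between the cytoplasmic and the mitochondrial ribosome. The 71 cytoplasmic ribosomal protein genes above the limit had a median of 0.06, or -0.09 relative to the bin, with RPL19 the single gene higher by 2-fold. RPLP1 read 9936 in untreated and 7144 in methanol, a difference of -0.48, and RPSA read 7339.5 and 5356, a difference of -0.45. RPS29, above the wider limit only, read 2159 and 1049.8, a difference of -1.03, and at least 1.70-fold lower by the background limit. RPS29 and USP17L2, whose rows match many copies, were the 2 protein-coding genes lower by 2-fold at that limit, and both were chosen after their values were seen. The 22 mitochondrial ribosomal protein genes had a median of 0.37, or 0.16 relative to the bin, and 18 of them lay above their bin. At the wider limit the 73 measured had a median of 0.38, or 0.095 relative to the bin, and 46 of them lay above their bin.

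Genes of the RNA polymerase III machinery, which makes RPPH1, RMRP and RN7SK, did not share the direction of these RNAs. The 11 subunits and factors of RNA polymerase III above the limit had a median of 0.48, or 0.31 relative to the bin, and GTF3C6 was the 1 past 2-fold. At the wider limit the 29 measured had a median of 0.44, or 0.11 relative to the bin, and 18 of them lay above their bin. BDP1, a part of TFIIIB, read 1093 and 2002, a difference of 0.86. POLR3K read 1088 and 1776, a difference of 0.70, and SSB, the La protein that binds new RNA polymerase III transcripts, read 2999 and 4512, a difference of 0.59. None of 10 RNase P and MRP protein genes lay above the background limit, and 9 above the wider limit had a median of 0.45, or 0.10 relative to the bin. The 37 spliceosome proteins had a median of 0.30, or 0.08 relative to the bin, with SNRPE at 0.94 and SRSF5 at 0.82. The 21 genes of nucleolar ribosome biogenesis had a median of 0.21, or 0.00 relative to the bin.

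Other housekeeping lists kept near or above the level of all genes. The 39 proteasome subunits had a median of 0.28, or 0.11 relative to the bin, with PSMA3 at 0.84 and PSMD2 at -0.40. The 47 genes of the respiratory chain and ATP synthase had a median of 0.25, or 0.05 relative to the bin. NDUFA12 read 991 in untreated and 1938 in methanol, a difference of 0.96. The 9 exosome and nonsense-mediated decay factors had a median of 0.38, or 0.12 relative to the bin, with UPF3A at 0.79.

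Histone genes of the clusters, whose messages lack a poly(A) tail and accompany DNA synthesis, included the lowest protein-coding values above the limit. The 24 measured genes had a median of -0.03, or -0.24 relative to the bin, and 17 of them lay below their bin, where the median of all protein-coding genes was 0.24, or 0.02 relative to the bin. H2AC8 read 2982 in untreated and 1808 in methanol at 8 h, a difference of -0.72, and 3566 and 1514 at 1 h. H4C6 read 2786 and 1696 at 8 h, a difference of -0.71, and 2712 and 1035 at 1 h. H3C7 and H3C12, above the wider limit only and chosen after their values were seen, differed by -0.93 and -0.86. For 12 of the 24 genes the 4 methanol and LTD4 arrays all lay below both untreated arrays, against 11.1% of protein-coding genes. Across the list no gene passed 2-fold, where 0.568% of protein-coding genes were higher and 0.0% lower, and genes of the list ranged up to 0.72.

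The promoters of 3 histone genes with low values are shown from RefSeq, GRCh38.p14, from 250 bases before to 50 bases after the start, on the strand of the gene. They are shown as examples of the motif counts that follow, and only the CCAAT box is found in all 3. Capitals mark the CCAAT box, the TATA sequence TATAAA or the octamer ATGCAAAT, each on either strand. Matches may overlap, as in the last sequence, where matches of the TATA sequence on both strands share bases. H2AC8 lies at chr6:26216671-26216970 on the plus strand, H4C6 at chr6:26240143-26240442 on the plus strand and H3C7 at chr6:26250586-26250885 on the minus strand.
H2AC8: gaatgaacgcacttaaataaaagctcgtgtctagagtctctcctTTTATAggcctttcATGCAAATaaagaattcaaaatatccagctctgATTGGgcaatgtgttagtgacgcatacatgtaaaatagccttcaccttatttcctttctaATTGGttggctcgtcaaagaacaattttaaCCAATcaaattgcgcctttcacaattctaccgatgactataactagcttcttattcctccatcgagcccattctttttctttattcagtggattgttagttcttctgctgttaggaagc
H4C6: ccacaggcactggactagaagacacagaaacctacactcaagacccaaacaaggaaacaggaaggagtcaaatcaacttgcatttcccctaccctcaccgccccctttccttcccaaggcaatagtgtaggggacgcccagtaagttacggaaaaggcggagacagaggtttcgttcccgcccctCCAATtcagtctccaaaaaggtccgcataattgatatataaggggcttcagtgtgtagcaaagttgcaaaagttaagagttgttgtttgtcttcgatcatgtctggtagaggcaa
H3C7: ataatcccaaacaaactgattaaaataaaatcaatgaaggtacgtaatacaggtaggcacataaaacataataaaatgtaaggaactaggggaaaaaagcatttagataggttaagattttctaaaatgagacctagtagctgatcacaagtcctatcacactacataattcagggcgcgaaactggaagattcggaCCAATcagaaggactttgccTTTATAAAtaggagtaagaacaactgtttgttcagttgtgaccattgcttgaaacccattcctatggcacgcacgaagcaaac

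Of 48 histone cluster genes above the wider limit, 44 had a promoter in the table. CCAAT was in 40 of them (90.9%), against 35.7% of all 27305 promoters. TATAAA was in 29 (65.9%), against 11.95%, and ATGCAAAT in 18 (40.9%), against 1.80%. These matches describe the promoters of the family, which also includes genes with values near 0.

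Genes of the cell cycle did not share the values of the histones. The 21 genes of DNA replication and S phase had a median of 0.14, or -0.06 relative to the bin, with MCM2 at -0.37 and MCM3 at -0.12. The 32 genes of mitosis and G2 had a median of 0.33, or 0.07 relative to the bin, and 26 of them lay above their bin. NUF2, of the kinetochore, read 1239 in untreated and 2208 in methanol, a difference of 0.83, and CCNB2 read 1693 and 2697, a difference of 0.67, while CKS2 differed by -0.18.

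Lipid and sugar metabolism lay below the level of all genes. The 16 sterol synthesis genes had a median of 0.09, or -0.08 relative to the bin. EBP, the sterol isomerase, read 2795 in untreated and 1917 in methanol, a difference of -0.54, and CYP51A1 read 2474 and 1881, a difference of -0.39. The 7 fatty acid synthesis genes had a median of 0.03, or -0.23 relative to the bin, with ACLY at -0.24 and SCD at -0.09. Of the 15 glycolysis genes 13 lay below their bin, with a median of 0.03, or -0.11 relative to the bin. In the 1 h pair the glycolysis median was 0.11 relative to the bin, while sterol and fatty acid synthesis had -0.10 and -0.13. GAPDH read 19294 and 17024, ENO1 read 18009 and 14322, and SLC2A1, the glucose transporter, read 1856 and 1567.

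Serum response and cytoskeletal genes had a median below 0 at the background limit but not at the wider one. The 6 above the limit had a median of -0.13, or -0.31 relative to the bin, and at the wider limit the 12 measured genes had 0.09 and -0.12. ACTB, the cytoplasmic actin, read 14164 in untreated and 11724 in methanol, a difference of -0.27. FLNA read 6499 and 5578, a difference of -0.22. EGR1, an immediate early gene, read 573 and 990.1, both under the background limit, which its mean passed through the 1 h arrays, while IER5 read 1462 and 1112, a difference of -0.39.

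Signalling and immune lists held 0 genes past 2-fold above the background limit. That is near the share of all protein-coding genes there, 0.568% higher and 0.0% lower. The 10 targets and feedback genes of NF-kB showed a median of 0.30, or 0.09 relative to the bin, with REL at 0.71 and NFKB1 at -0.11. The 11 chemokines and cytokines had a median of 0.24, or 0.09 relative to the bin. IL6 read 872 and 1474, a difference of 0.75, and MIF, the macrophage migration inhibitory factor, read 2019 and 1253, a difference of -0.68. The MIF row spans 197771 bases of the file's coordinates, far beyond a single small gene. The 7 leukotriene and eicosanoid genes had a median of 0.05, or -0.23 relative to the bin. ALOX15, the lipoxygenase that makes eoxins, read 9224 and 7185, a difference of -0.36, and CYSLTR1, a receptor of LTD4, read 1499 and 1551, a difference of 0.05.

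**Figure D5:**
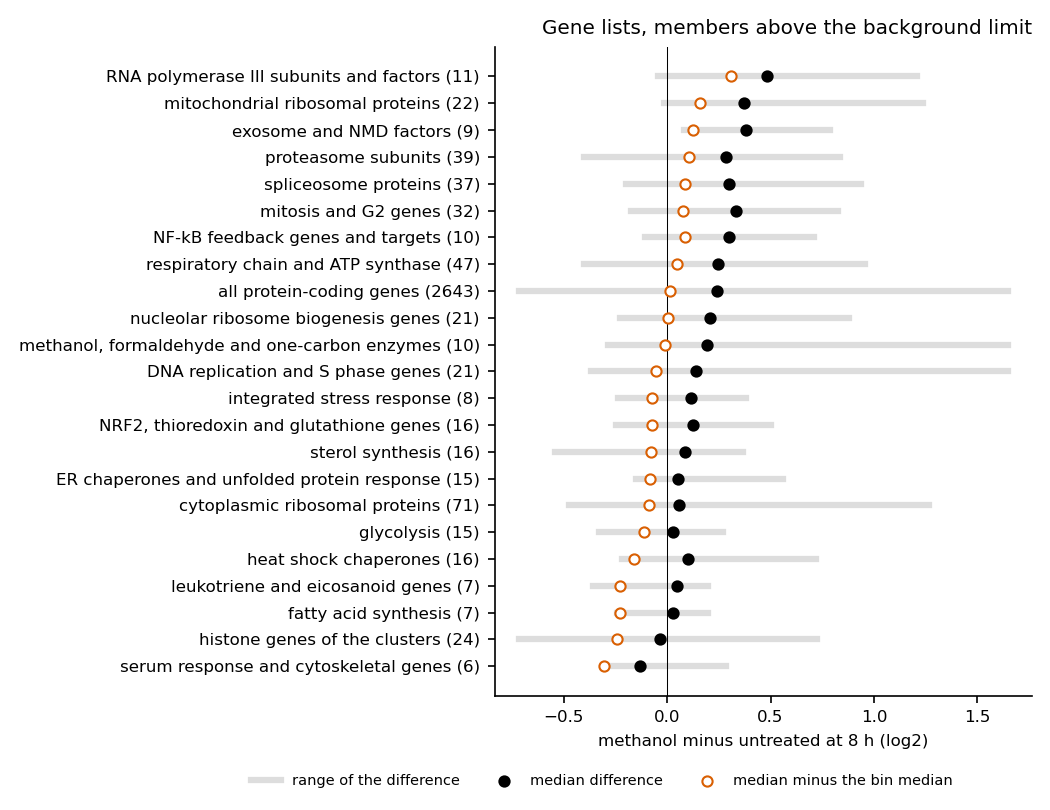
Median difference of methanol minus untreated at 8 h for 22 gene lists and for all protein-coding genes, members above the background limit (their number in brackets), on the log2(intensity + 16) scale. Filled circles are medians, open circles medians after the bin median was taken off and grey bars the range of members. RNA polymerase III factors and mitochondrial ribosomal proteins have the highest values relative to the bin, and serum response genes and cluster histones the lowest. At the wider limit, which is not drawn, these lists had 0.11, 0.095, -0.12 and -0.22 relative to the bin.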

How the data were processed

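The deposited table holds a linear intensity for each of 33297 probesets on 6 arrays. Per the submitters' processing notes, the tools were RMA and Affymetrix Expression Console, without versions. The deposited file is named for PLIER, a different way to summarise probes. The method behind the deposited intensities, their normalization between arrays and the build of the file's coordinates are therefore not settled by the sources used here. The series matrix of the authors held equal intensities in all 199782 values, and 0 columns of sample values were left unused.

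Of the probesets, 19479 named 1 gene symbol, 1032 several and 12786 none. Symbols were updated through Entrez identifiers to RefSeq (GRCh38.p14) for 19085, and the brightest probeset of each symbol was kept, which left 18605 genes. Short RNA rows were told apart by symbol and biotype. The deposited intensities were turned into log2(intensity + 16) values, which understates the differences of dim genes. The limit from the antigenomic controls was applied to the mean over the 6 arrays, and 20 bins of protein-coding genes gave the relative values. The bin step was tested on simulated data. With 1 array a group there was no test, and the number of arrays limits the precision.

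Named were the 15 highest protein-coding genes past 2-fold and up to 10 lowest, the 10 highest and 8 lowest short RNA rows, and up to 4 members of each list by the size of the relative value, from which examples are given. RPPH1, RMRP, DDIT3, CTAG2 and CES1 were named in every case. Some genes that the rule names, and some markers, are not reported here. The genes and lists were chosen with earlier results of these data known. Alternatives covered offsets of 1 and 64, other limits, scalings, 1.5-fold, the mean of a gene's probesets and the second table. Python 3.11.15, pandas 2.3.3, numpy 2.4.6 and matplotlib 3.10.9 were used.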

Additional observations from a re-analysis of the deposited data

Results flagged for a closer look

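RPL19, KIAA1143 and ENY2 were higher by 2-fold with methanol at 8 h and lay on the other side of 0 at 1 h. RPL19 differed by 1.27 at 8 h and by -0.23 at 1 h, KIAA1143 by 1.14 and -0.16, and ENY2 by 1.09 and -0.0206. The 8 h untreated values, 1834, 706 and 1095, were the lowest of the 6 arrays for all 3 genes, which their choice by the 8 h difference favours. The difference between the times was not tested.

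Main probesets without a gene symbol were used in no comparison of the report. Of 338 such rows above the background limit, 29 were higher by 2-fold with methanol at 8 h and 1 was lower, with a median difference of 0.27. Over all 3499 main rows above the limit, these rows included, 66 were higher and 4 lower, and 15 of 2643 protein-coding genes were higher (0.568%).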

How the results depend on the processing

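Counts of genes past 2-fold depended on the limit and the scaling. The 15 protein-coding genes higher became 51 with the limit on the highest array, 200 at the median gene, 562 with no limit, 1 with arrays centred on their medians, 2 after quantile normalization, 3 after the bin median was taken off and 272 at 1.5-fold. The 0 lower became 2, 2, 3 and 7 with the first 4 of these settings, and 3 at 1.5-fold. The 12 short RNA rows higher became 19, 29, 46 and 6 with the same 4 settings and 20 at 1.5-fold. The 3 short RNA rows lower became 4 under the 3 other limits and stayed at 3 under the scalings. More genes were measured under the wider limits. Centring moved the median of all measured protein-coding genes from 0.24 to -0.25, and quantile normalization moved it to -0.02. RPPH1, RMRP, RNU4B1, RNU5E-1, RPS29 and USP17L2 stayed lower by 2-fold under centring, quantile normalization and the bin median. With an offset of 64, RPS29 was at -0.997, just short of 2-fold. No paired analysis was possible because each group was 1 array with the same replicate number. Depth is not known for arrays. Values under an intensity of 1263 lie under the 95th percentile of the antigenomic controls. The median of these controls was far lower, at 40.7 in untreated and 59.75 in methanol at 8 h.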

Other observations

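Cancer-testis antigens, genes normally silent outside the germ line, were described in the report only through CTAG2. Of 17 in the table, 4 lay above the background limit, with a median of 0.17, or -0.03 relative to the bin. PRAME read 3701 in untreated and 3696 in methanol at 8 h, MAGEB2 read 2341 and 2645, and CT45A1 read 2946 and 3307. Of the BCL2 family 3 genes lay above the limit, BCL2L1 at 0.38, PMAIP1 at 0.25 and MCL1 at -0.01, and BAK1, above the wider limit, read 1062 and 722, a difference of -0.55. The 7 interferon response genes above the limit had a median of 0.15, or -0.08 relative to the bin, with PSMB8 at 0.58 and TAP1 at -0.16.

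The median difference did not follow the GC content of the promoter. With the genes above the wider limit that have a promoter in the table split into 5 equal groups by GC content, it was 0.33, 0.33, 0.31, 0.31 and 0.32, from the lowest GC to the highest.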
